A study of Homo sapiens with 7 samples.

Results

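FOXA1 binding was compared between LNCaP cells treated with GSK2879552 and LNCaP cells treated with DMSO, both for 4 hours. LNCaP is an established human prostate cancer line, GSK2879552 inhibits the lysine demethylase LSD1, and DMSO is the solvent used as vehicle. The members are all FOXA1 peaks on chromosomes 1 to 22 and X in the authors' list for each library: 63866 with GSK2879552 and 79741 with DMSO. Together they are 143607 of the 464730 peaks on these chromosomes in the 7 lists of the series. A further LNCaP list, called the combination here, is FOXA1 after GSK2879552 and PFI-2, which blocks the lysine methyltransferase SETD7. Its title names PFI, while its treatment label does not settle whether PFI-2 was added. The others come from CWR22-Rv1 (22Rv1 here), also an established prostate cancer line: FOXA1 with shSETD7, with shCTL or with vehicle, and SETD7 itself with vehicle. There was 1 library per group, so no difference between conditions could be tested, and the 95% intervals in parentheses (Wilson for shares) cover counting error only. Positions are on build hg19.

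FOXA1 is a forkhead pioneer factor. It binds its DNA motif in closed chromatin, mostly at enhancers, and in prostate cells it opens sites that the androgen receptor then uses. LSD1 removes methyl groups from lysines of histone H3 and of other proteins, FOXA1 among them, and SETD7 adds a methyl group to lysines of histone and non-histone proteins. A ChIP-seq peak marks where sequenced fragments pulled down with the antibody pile up. A peak absent from a list may be bound below the level at which that library gave a call.

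The lists were first checked against their label. Each list was split by its own scores into 10 equal groups, decile 1 the lowest and decile 10 the highest. In decile 10 of the GSK2879552 list, 82.1% of peaks (81.2 to 83.0) lay on a vehicle FOXA1 peak of 22Rv1 and 1.21% on a SETD7 peak. The list called vehicle FOXA1 carries the tag siNTC in its peak names, which its labels do not mention. The score is the authors' own whole number for each peak, between 48 and 3130 with GSK2879552 and between 40 and 3636 with DMSO. Its definition is not given in the sources used here, so it served only to rank peaks within a list. Read depth is not in the lists.

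Most GSK2879552 peaks lay on DMSO peaks, and the reverse held less often. Kept means an overlap of at least 1 bp with the other list. Gained (GSK2879552 list) and lost (DMSO list) mean that the other list held nothing within 1 kb. With GSK2879552, 57293 peaks were kept, or 89.7% (89.5 to 89.9), and with DMSO 56804, or 71.2% (70.9 to 71.5). Gained peaks numbered 5792, which is 9.07% of the GSK2879552 list (8.85 to 9.29), and lost peaks numbered 21472, which is 26.9% of the DMSO list (26.6 to 27.2). The rest had a peak of the other list close by without overlap: 781 GSK2879552 peaks and 1465 DMSO peaks. The nearest peak of the other list was a median of 11351 bp away from gained peaks and 15379 bp away from lost peaks, and more than 10 kb away for 54.3% and 65.9% of them. In the GSK2879552 list, 244 peaks lay just outside the 1 kb limit, by less than 0.5 kb, with a median score of 134, and 336 lay just inside it, with 125. In the DMSO list these were 473 peaks with a median score of 130 and 599 with 128.

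The excess of losses over gains was much smaller in lists of equal length, as the cut itself requires. The DMSO list was 15875 peaks longer, and cut to as many peaks as the GSK2879552 list it ended at a score of 120. With both lists at 63866 peaks, gained peaks numbered 10407 (16.3%, 16.0 to 16.6) and lost peaks 11014 (17.2%, 16.95 to 17.54). Of these 10407, 4461 overlapped a DMSO peak that had been left out. At equal length, 82.3% of GSK2879552 peaks (82.0 to 82.5) and 81.5% of DMSO peaks (81.2 to 81.8) were kept. Most overlaps joined 1 peak to 1 peak (51520 pairs). Kept shares, and so gain and loss, therefore had to lie close together whatever the treatment did.

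Gained and lost peaks were mostly weakly scoring sites: 96.1% of gained and 91.3% of lost peaks were in the lower-scoring 50% of their list. In decile 1, 27.4% of GSK2879552 peaks were gained (26.3 to 28.5) and 71.7% of DMSO peaks were lost (70.7 to 72.7). In decile 6 the shares were 2.60% gained (2.24 to 3.02) and 14.9% lost (14.1 to 15.7). In decile 9 they were 2 of 6387 gained and 28 of 7974 lost. In decile 10 no peak was gained among 6386 or lost among 7974, and a count of 0 allows up to 0.0470% and 0.0376%, taken as 3 peaks of each total. The strongest FOXA1 sites of LNCaP were thus called in both libraries, at the same place or within 1 kb.

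**Figure D1:**
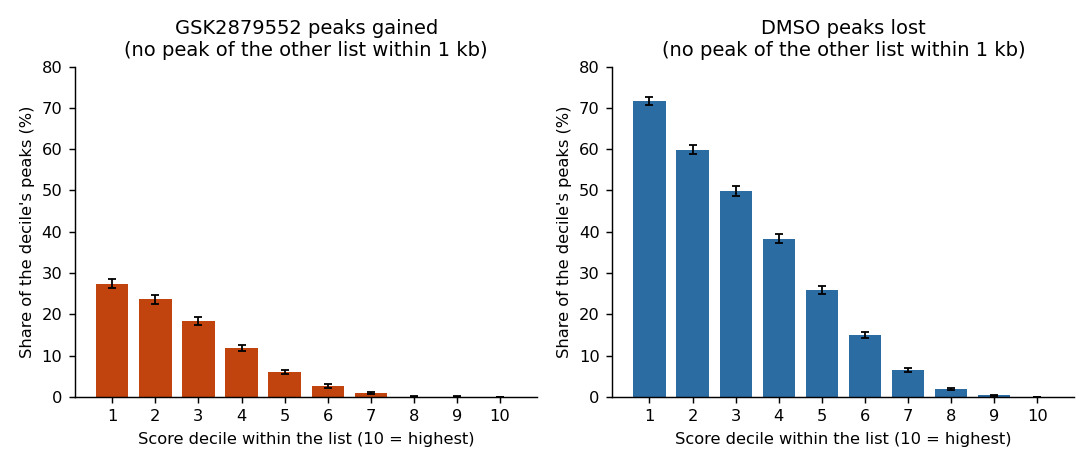
Share of GSK2879552 peaks gained (left) and of DMSO peaks lost (right) in each decile of the list's own scores, with 95% Wilson intervals. Both shares fall with score, from 27.4% and 71.7% in decile 1 to 0 in decile 10.

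The 10 highest-scoring gained peaks had scores of 328 to 605 and widths of 240 to 338 bp. The first was at chr11:77597411-77597735, with a score of 605, above 86.5% of its list. The nearest DMSO peak was 3785 bp away. The next were chr17:45249179-45249487 (score 505) and chr4:80273572-80273909 (score 429), then chr9:78790004-78790306 (402), chr20:5825056-5825324 (392) and chr16:33950159-33950493 (347). The last 4 were chr16:69235798-69236051 (336), chr6:79297103-79297368 (334), chr9:85214549-85214795 (330) and chr10:134353005-134353244 (328). Of the 10, 8 overlapped a vehicle FOXA1 peak of 22Rv1 and 9 a peak of the LNCaP combination list. Their scores lie in deciles 7 to 9. Of kept GSK2879552 peaks there, 48.2% to 67.8% overlapped a vehicle peak, 99.9% to 100% a combination peak and 1.03% to 1.17% a SETD7 peak. The sites on chromosome 4 and at chr16:33950159-33950493 also overlapped 22Rv1 peaks of SETD7 and of all 3 FOXA1 lists. All but chr9:85214549-85214795 were thus called as FOXA1 peaks in another library too. Such recurrence does not tell a bound site from a region prone to artefact, and these sites were not screened against such regions.

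The 10 highest-scoring lost peaks had scores of 564 to 708 and widths of 421 to 877 bp. The first was at chr3:96431552-96432202, with a score of 708 (above 88.4% of the DMSO list) and the nearest GSK2879552 peak 7085 bp away. The second, chrX:114383700-114384177 (score 630), had the largest gap of the 10, 126837 bp. They were followed by chr10:126628563-126628983 (607), chr6:122447517-122448393 (604), chr4:71363980-71364428 (594) and chr13:35760510-35761032 (592). The others were chr5:165235254-165235736 (576), chr5:143309278-143309825 (574), chr2:35686851-35687435 (564) and chr8:54314082-54314538 (564). All 10 were peaks in the combination list, at percentiles between 74.4 and 88.9 of it. In 22Rv1, 7 of them overlapped a vehicle FOXA1 peak, 1 overlapped an shSETD7 FOXA1 peak, and none of the 10 overlapped a SETD7 peak. Decile 9 of DMSO scores holds all 10. Of its kept peaks, 100% overlapped a combination peak, 59.8% a vehicle peak, 37.4% an shSETD7 peak and 0.718% a SETD7 peak.

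Ranks at kept peaks were compared next, to ask whether the order of FOXA1 sites changed where both libraries had a call. Lists of equal length were used, and only peaks that overlapped exactly 1 peak of the other list: 51520 pairs. A percentile of 100 is the highest score of a list, and a shift is the GSK2879552 percentile minus the DMSO percentile. The median shift was 0.41 points (0.31 to 0.50, exact binomial interval of the median over pairs). With percentiles taken in the lists as deposited, of unequal length, it was -4.17 points (-4.29 to -4.01). The middle 50% of shifts lay between -9.16 and 10.2 points. Over pairs, the Pearson correlation between these percentiles was 0.77, as a description of 51520 sites that share their library and their method of calling.

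The 5 pairs with the lowest sum of ranks, high in both lists by this choice, were on chromosomes 18, 17, 9, 1 and 17. The GSK2879552 list was led by chr17:5135473-5135906 (score 3130), where the DMSO peak was chr17:5135420-5135983 (score 3499). At chr18:70856894-70857366 the GSK2879552 peak scored 3090, and the DMSO peak, chr18:70856777-70857432, led its list with 3636. All 5 were FOXA1 peaks in every 22Rv1 list and in the combination, and none of the 5 overlapped a SETD7 peak. Of kept GSK2879552 peaks in decile 10, 100% overlapped a combination peak and 1.21% a SETD7 peak. The 22Rv1 FOXA1 shares there were 82.1% with vehicle, 84.4% with shCTL and 62.7% with shSETD7. When pairs were split into 10 groups by mean rank, 89.9% of the highest group shifted by less than 5 points. In group 3 from the lowest, 13.5% did.

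Larger moves were found in both directions. Ranks in lists of equal length hold the median shift low and make rises and falls balance in part. A rise of 25 points or more was found at 4216 pairs, 8.18% of all pairs, and a fall of that size at 4509 pairs, 8.75%. Moves of 50 points or more were less even, with 276 rises and 582 falls. No move of 25 points was found in the highest group by mean rank and 1 in the group below it, where ranks leave little room for such a move.

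The 5 largest rises, among pairs in the higher-scoring 50% of either list, were at sites with weak DMSO peaks. At chr4:49149287-49149614 the percentile was 81.9 with GSK2879552 (score 502) and 6.14 with DMSO (score 131). At chr7:73256490-73256929 it was 75.1 with GSK2879552 and 1.70 with DMSO. At chr10:98561233-98561649 it was 93.7 with GSK2879552 (score 895), the highest of these 5 in that list, and 20.4 with DMSO (score 161). The other two were chr10:39138025-39138326 and chr1:249167316-249167610. All 5 overlapped a vehicle FOXA1 peak of 22Rv1, and those on chromosome 4 and at chr10:39138025-39138326 overlapped a SETD7 peak as well. The 5 sites were not screened against regions prone to artefact, where a peak can recur across lists and antibodies. The GSK2879552 scores of these 5 lie in deciles 7 to 10. Of kept GSK2879552 peaks there, 48.2% to 82.1% overlapped a vehicle peak, the share growing with score, and 1.03% to 1.21% a SETD7 peak.

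By the same rule, the 5 largest falls were at wide DMSO peaks, 452 to 765 bp, within which a GSK2879552 peak of 180 to 330 bp was called. At chr5:54506979-54507219 the percentile was 2.99 with GSK2879552 (score 82) and 88.7 with DMSO (score 809). At chr11:75206621-75206846 it was 2.99 with GSK2879552 and 86.1 with DMSO. At chr8:29184709-29185038 it was 6.09 with GSK2879552 and 89.0 with DMSO. The other two were chr8:87849381-87849560 and chr9:35179923-35180213. In the combination list these 5 sites stood at percentiles of 66.8 to 92.4, against 82.5 to 89.0 with DMSO, and no SETD7 peak overlapped them. SETD7 peaks overlapped 0.718% and 0.702% of kept DMSO peaks in deciles 9 and 10, where their DMSO scores lie.

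Peaks that fell were wide in DMSO, and peaks that rose were narrow there. With pairs matched on mean rank in 20 groups, the DMSO peak was 69.5 bp wider at falls than at pairs that moved less than 25 points (66.2 to 72.9). It was narrower by 36.7 bp at rises (difference -36.7 bp, -38.8 to -34.7). In the GSK2879552 list the same differences were -5.30 bp at falls and 16.1 bp at rises. At equal mean rank a fall has the higher DMSO score by construction, and width goes with score, so these differences are no independent measure. In the combination list, falls had a median percentile of 53.9, against 18.1 with GSK2879552 and 59.0 with DMSO. Rises had 38.2, against 56.2 with GSK2879552 and 19.0 with DMSO. The combination medians cover 4365 of the falls and 3710 of the rises, those present in that list at equal length. Falls and rises were picked by their GSK2879552 and DMSO percentiles, so the medians of these 2 lists lie apart by choice.

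The size of these shifts was set beside other pairs of libraries. With all lists cut to 63866 peaks, the share of pairs moving 25 points or more was 8.18% up and 8.75% down for GSK2879552 against DMSO. It was 3.83% up and 3.78% down for the combination against DMSO, which share the DMSO library with it. It was 15.2% up and 14.1% down for vehicle against shCTL FOXA1 in 22Rv1, both labelled as controls. For GSK2879552 against the combination, which share the GSK2879552 library with the first pair, it was 7.38% up and 7.94% down. The vehicle and shCTL lists differ in score range, with highest scores of 3392 and 84065. Among the 1000 highest peaks of each list, 69.6% of GSK2879552 peaks (66.7 to 72.4) overlapped one of the 1000 highest of DMSO. This share was 72.7% for GSK2879552 against the combination, 83.7% for the combination against DMSO and 52.6% for vehicle against shCTL. With the whole DMSO list, all of the 1000 highest GSK2879552 peaks had a DMSO peak, so these peaks differed in rank between the lists and not in whether they were called.

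**Figure D2:**
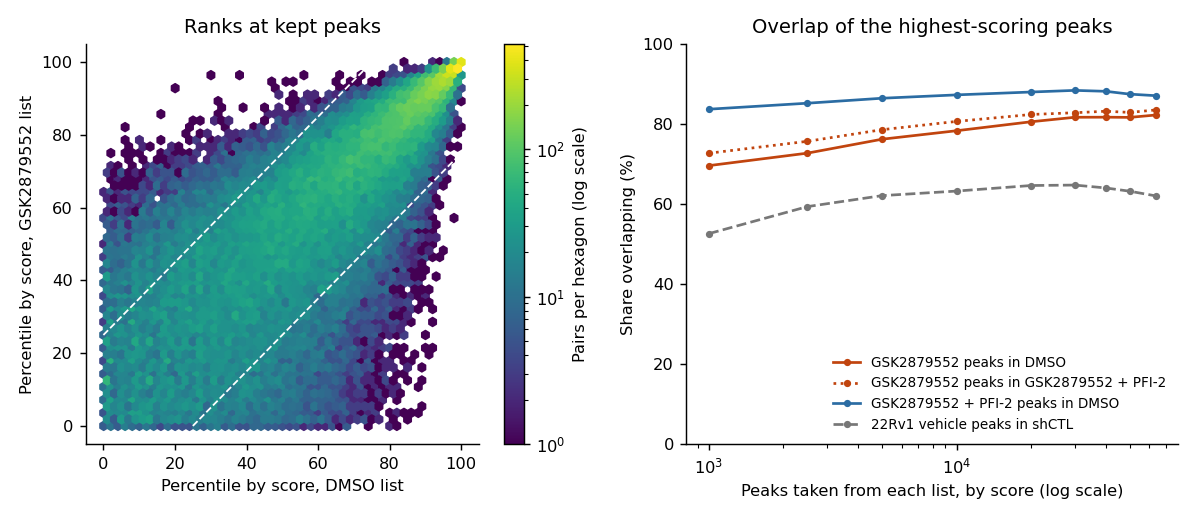
Left, percentile by score in the GSK2879552 list against that in the DMSO list for 51520 kept pairs at equal list length; dashed lines mark moves of 25 points, and colour gives pairs per hexagon on a log scale. Right, share of the highest-scoring peaks of one list that overlap the same number of highest-scoring peaks of another, against that number on a log axis: GSK2879552 against DMSO runs from 69.6% to 82.3%, between the combination against DMSO and the control lists of 22Rv1.

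Kept peaks were narrower with GSK2879552. Over 56252 pairs of the whole lists in which each peak overlapped exactly 1 of the other list, the median width was 272 bp with GSK2879552 and 362 bp with DMSO. The median difference was -81 bp (-81 to -80), and the GSK2879552 peak was the narrower in 52278 pairs, 92.9%. Midpoints barely moved: their median distance was 19 bp, and 41816 GSK2879552 peaks (74.3%) lay wholly inside their DMSO peak. GSK2879552 peaks were narrower at every score level, but not equally: the median difference was -28 bp in decile 1 and -101 bp in decile 10. In decile 1 of DMSO scores the median widths were 209 bp with GSK2879552 and 234 bp with DMSO. In decile 10 they were 363 bp with GSK2879552 and 477 bp with DMSO. The 5 largest decreases were between -970 and -760 bp, and the 5 largest increases between 311 and 866 bp.

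The shortest width a list holds differed too. It was 178 bp with GSK2879552 (3236 peaks) and 208 bp with DMSO (3738 peaks). Measured from each list's own shortest width, the median difference was -51 bp over all pairs. In deciles 1 and 2 of DMSO scores the median differences in width, -28 and -30 bp, were about the -30 bp between the shortest widths. Vehicle and shCTL peaks of 22Rv1 also differed in width, by a median of -77 bp over pairs, with shortest widths of 187 and 219 bp. The combination and DMSO had shortest widths of 206 and 208 bp, and pairs differed by a median of 4 bp. GSK2879552 peaks differed from combination peaks by a median of -85 bp. The part of the calling in the narrower GSK2879552 peaks was not tested.

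Wide DMSO peaks were sometimes met by several GSK2879552 peaks. This was so at 508 DMSO peaks, 0.894% of those overlapped (0.820 to 0.975), with a median width of 741 bp. The reverse, a GSK2879552 peak over several DMSO peaks, was found 22 times. For the combination the same counts were near even, 202 combination peaks over several DMSO peaks and 232 DMSO peaks over several of the combination. At 3 DMSO peaks, 3 GSK2879552 peaks were called: chr1:208376153-208377319 (score 1645), chr6:114480324-114481455 (763) and chr9:38047000-38047939 (237).

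Gained and lost peaks differed in width from kept peaks of the same score. In decile 5 of GSK2879552 scores, gained peaks had a median width of 227 bp and kept peaks 246 bp, and gained peaks were narrower in each of deciles 1 to 7. Lost DMSO peaks were slightly narrower than kept ones at low scores, with medians of 226 bp for lost and 234 bp for kept peaks in decile 1. They were wider at higher scores, with 374 bp for lost and 357 bp for kept peaks in decile 7. In decile 8, which held 148 lost peaks, the medians were 416 bp for lost and 383 bp for kept peaks.

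**Figure D3:**
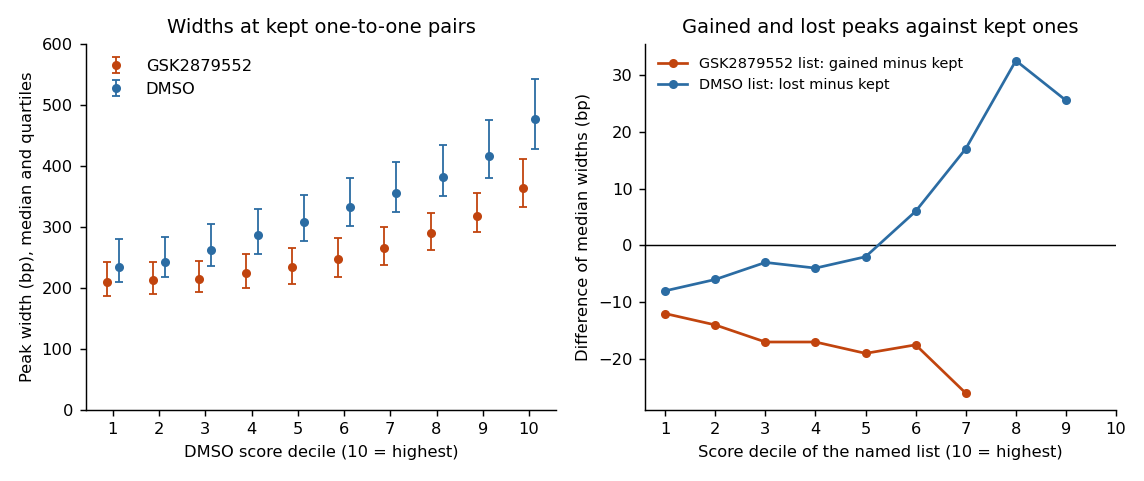
Left, median width and quartiles in bp of GSK2879552 and DMSO peaks at kept one-to-one pairs, by decile of DMSO score; GSK2879552 peaks are narrower in all 10 groups. Right, difference of median widths in bp, gained minus kept within the GSK2879552 list and lost minus kept within the DMSO list, by decile of that list's scores, for groups with at least 10 gained or lost peaks; the DMSO line crosses 0 between the fifth and sixth groups.

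FOXA1 in 22Rv1, which played no part in choosing the classes, was then used to describe them. Lost sites were less often FOXA1 sites of the other prostate line than kept sites of the same score. Matched by decile of DMSO score, 19.2% of lost peaks and 35.3% of kept peaks overlapped a vehicle FOXA1 peak of 22Rv1, a difference of -16.1 points (-16.9 to -15.2). The difference was -16.3 points with the shCTL list and -17.8 points with the shSETD7 list. Peaks found in none of the 3 FOXA1 lists of 22Rv1 made up 64.2% of lost and 46.4% of kept peaks after matching. Overlap with the vehicle list was less frequent for lost than for kept peaks in each of deciles 1 to 8. In decile 9, 18 of the 28 lost peaks did so, 64.3% (45.8 to 79.3), against 59.8% of kept peaks.

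Gained sites did not differ from kept ones in 1 direction. Matched by decile of GSK2879552 score, 37.7% of gained peaks and 31.1% of kept peaks overlapped a vehicle FOXA1 peak of 22Rv1, a difference of 6.58 points (5.21 to 7.95). The difference was 9.75 points with the shSETD7 list but -1.61 points with the shCTL list (-3.03 to -0.184), so its direction depended on which 22Rv1 list was used. It depended on the matching as well: without it, 36.8% of gained and 47.5% of kept peaks overlapped a vehicle peak, a difference of -10.7 points (-12.0 to -9.40).

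The direction for peaks that rose in rank also turned with matching. As found, 48.3% of rises, 33.4% of falls and 50.8% of pairs that moved less than 25 points overlapped a vehicle FOXA1 peak of 22Rv1. Matched on mean rank in 20 groups, rises exceeded the pairs that moved less by 11.9 points (10.3 to 13.5) with the vehicle list, 6.64 points with shCTL and 13.2 points with shSETD7. For falls the matched difference was -3.67 points (-5.18 to -2.17) with the vehicle list and -12.0 points with shSETD7. With shCTL the difference for falls was -0.487 points (-2.07 to 1.10), which includes 0.

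Overlap with SETD7 was low in every class and highest at gained peaks. Of the gained peaks, 223 overlapped a 22Rv1 SETD7 peak, and of the lost peaks 70. Matched by score, the share was 3.99% for gained and 0.762% for kept GSK2879552 peaks, a difference of 3.22 points (2.70 to 3.75). It was 0.293% for lost and 1.40% for kept DMSO peaks, a difference of -1.11 points (-1.28 to -0.939). The gap between gained and kept peaks was wider at higher scores, with 3.14% of gained and 0.544% of kept peaks in decile 1, and 10.2% of gained and 1.13% of kept peaks in decile 6. In decile 7 it was 9 of 53 gained peaks and 1.17% of kept peaks. Of the 498 GSK2879552 peaks that overlapped SETD7 and all 3 FOXA1 lists of 22Rv1, 102 were gained. Without those 498 peaks the difference was 1.92 points (1.53 to 2.32). The SETD7 list is from 22Rv1, and sites called with both antibodies were not screened against regions prone to artefact.

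**Figure D4:**
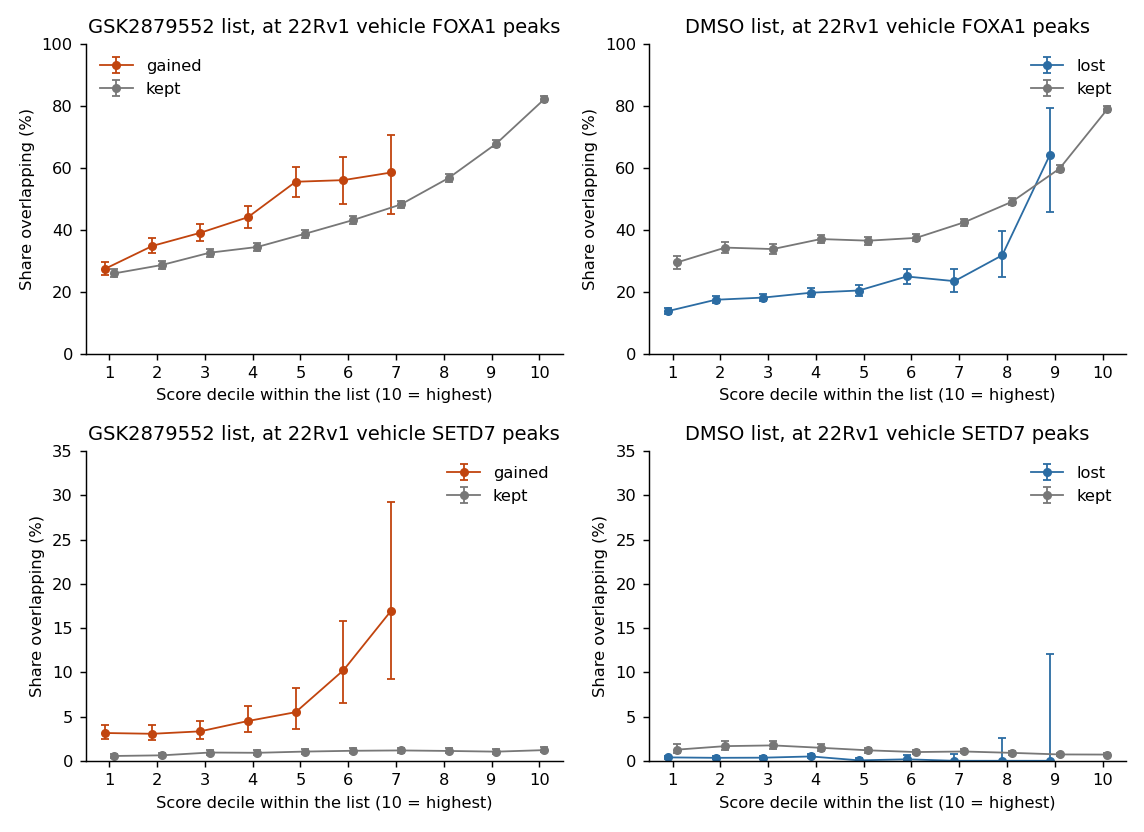
Share of gained and kept GSK2879552 peaks (left) and of lost and kept DMSO peaks (right) that overlap a vehicle FOXA1 peak (top) or a vehicle SETD7 peak (bottom) of 22Rv1, by decile of the list's own scores, with 95% Wilson intervals; groups with fewer than 10 peaks are not drawn. Lost peaks lie below kept ones at FOXA1 sites up to the eighth group, and gained peaks lie above kept ones at SETD7 sites.

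In the combination list, which was not used to choose the classes but shares its inhibitor with one of the libraries, 49.7% of gained peaks (48.4 to 51.0) and 67.7% of lost peaks (67.0 to 68.3) overlapped a peak. Without matching, kept peaks did so in 96.9% of cases for GSK2879552 and 97.0% for DMSO. Matched by score decile, the shares were 50.6% for gained and 92.1% for kept GSK2879552 peaks, and 74.7% for lost and 90.6% for kept DMSO peaks. The differences were -41.5 points (-42.8 to -40.1) for gained and -15.9 points (-16.5 to -15.2) for lost peaks. The share of lost peaks was higher at higher scores, with 47.9% in decile 1, 97.5% in decile 6 and all 148 in decile 8. The combination list holds 83352 peaks on these chromosomes, against 63866 with GSK2879552 and 79741 with DMSO. Its median width was 333 bp, as with DMSO, against 263 bp with GSK2879552. A longer list of wider peaks can overlap more sites, and the part of this in these shares was not tested.

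Loss was uneven between chromosomes. The share of DMSO peaks lost was highest on chromosome X, at 35.6% (33.7 to 37.6), and lowest on chromosome 22, at 20.8% (18.4 to 23.6). DMSO scores were lower on chromosome X, with a median of 191 against 230 on chromosome 22, so each share was set against that expected from the scores of the chromosome's peaks. Chromosome X stayed 5.31 points above its expected 30.3%, and chromosomes 13 and 2 were 3.71 and 2.18 points above theirs. The difference from expectation was -6.30 points on chromosome 19, -5.48 on 22, -3.61 on 16, -3.43 on 20 and -3.25 on 17. On these 8 chromosomes the interval of the observed share left out the expected one.

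Gain varied less and mostly in the opposite sense. Of the 13 chromosomes with less loss than expected, 11 had more gain than expected, and of the 10 with more loss, 6 had less gain. For gain, chromosome 16 was the 1 chromosome whose interval lay above expectation, with 10.4% of GSK2879552 peaks gained (9.02 to 11.9) against 8.57% expected. Chromosome 3 was the 1 whose interval lay below it, with 7.92% gained (7.19 to 8.72) against 8.87% expected. On all other chromosomes the interval for gain held the expected share. The opposite sense of gain and loss thus rests mostly on differences in gain within counting error. On chromosome X both loss and gain were above expectation, gain by 0.452 points. The ratio of GSK2879552 to DMSO peak number ran from 0.712 on chromosome X to 0.877 on chromosome 16. Rank shifts at kept pairs use other peaks but the same scores and libraries, so they are no independent measure. On chromosomes picked here by their loss, the median shift was 4.16 points on 19, 2.32 on 22 and 2.08 on 17. It was 1.75 on 16, 1.03 on 20, -0.745 on 13 and -0.0188 on 2. On chromosome X it was 0.461, close to the 0.412 of all pairs. Base composition was not examined, and its part in these differences was not tested.

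**Figure D5:**
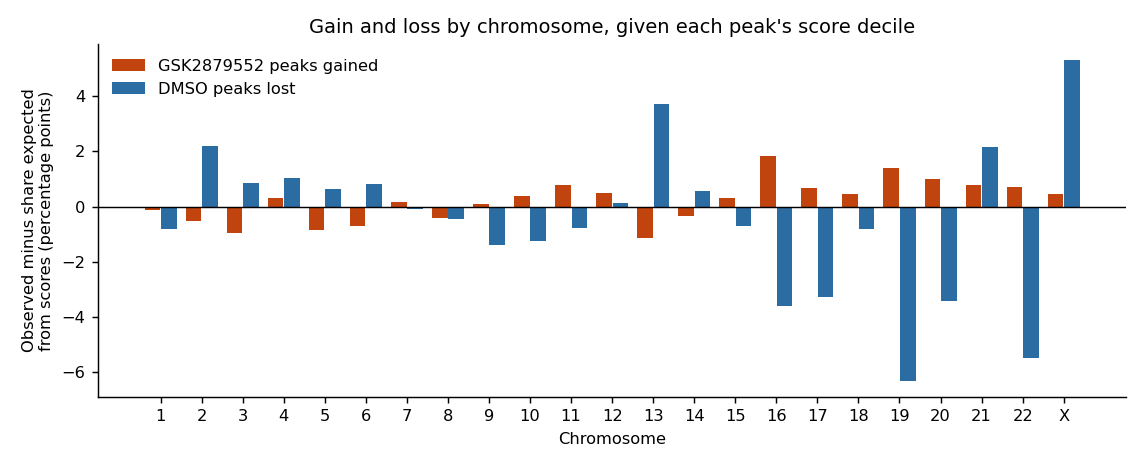
Observed minus expected share, in percentage points, of GSK2879552 peaks gained and of DMSO peaks lost on each chromosome, where the expected share follows from the score deciles of the chromosome's peaks. Loss is above expectation on chromosomes X, 13 and 2 and below it on 19, 22, 16, 20 and 17.

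Taken in order along each chromosome, the 21472 lost peaks formed 15122 uninterrupted runs. Of these, 10739 were single peaks, which is 50.01% of lost peaks, and 139 runs held 5 or more. The number of runs that a scattered loss of this size would give was not computed. The longest held 11 neighbouring DMSO peaks at chr3:82390529-83161028, with a median score of 111, and 9 of the 11 were peaks in the combination list. The next held 10 peaks at chr2:193400861-193612043, 5 of them in the combination list. Over all lost peaks the share in the combination list was 67.7%, and it was 58.0% in decile 2, which holds a score of 111. The run on chromosome 2 had a median score of 135, in decile 3, where the share was 70.1%. The run on chromosome 2 lies in the 1 Mb window with the highest share lost among 1309 windows with at least 30 DMSO peaks. The interval left out the share expected from scores in only 38 of the 1309 with more loss and 24 with less. In the window on chromosome 2, 21 of 35 DMSO peaks were lost (60.0%, 43.6 to 74.4), against 34.0% expected. No GSK2879552 peak was gained there. These places were chosen after their values were seen.

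DMSO peaks with neighbours were lost less often than isolated ones. The share lost was 22.3% (21.5 to 23.1) of the 10373 peaks with 2 or more other DMSO peaks within 10 kb, and 28.7% (28.3 to 29.2) of the 42591 with none. From the scores alone 26.1% and 27.2% were expected, a difference of -3.78 points for clustered peaks and 1.59 points for isolated ones. The 1 kb rule bears on this, since a peak of the other list called at a neighbouring site counts against loss. For gained peaks the shares were 8.91% (8.25 to 9.62) and 9.43% (9.13 to 9.73) in the same order, 0.0720 and 0.265 points above expectation.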

How the data were processed

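FOXA1 ChIP-seq of 2 LNCaP libraries was used, with the other 5 peak lists as descriptions of the same sites. The tools named are MACS2 2.1.4, BWA 0.7.17-r1188, FastQC 0.11.9 and SAMtools 1.9, on build hg19, per the submitters' processing notes. How peaks were thresholded, and against which input, is not given in the sources used here. Each library has 1 list, and the deposited score is 1 whole number per peak. Groups came from sample titles. The 351 GSK2879552 and 464 DMSO peaks outside chromosomes 1 to 22 and X were left out.

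Overlaps, gaps, percentiles (ties averaged) and widths were computed with Python 3.11.15, numpy 2.4.6, pandas 2.3.3 and scipy 1.17.1, tested on simulated lists and checked against bedtools 2.31.1. Matched differences weight score deciles by the peaks of both classes, with analytic intervals. Expected shares average the whole list's share in each score decile. No test between conditions was made. Named sites are the 10 highest scores gained and lost, the 5 largest rank rises and falls among pairs in the upper 50% of either list, and the 5 pairs highest in both. Members, lists and rules were chosen with earlier results of these data known. The reference given is of another build, so no gene, motif or sequence was assigned. Planned promoter, gene list and motif shares were not made.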

Additional observations from a re-analysis of the deposited data

How the results depend on the processing

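Of 55 alternatives for 12 results, 14 were chosen after seeing the data. In 25 the value stayed within the interval of the one reported (counts within 1.5 times), in 27 it moved, and in 3 it changed sign. No paired analysis was possible because each group has 1 library and no test was made. With the DMSO list shortened to equal length, GSK2879552 and DMSO peaks kept were 82.3% and 81.5%, gained 16.3% and lost 17.2%. Reciprocal 50% overlap gave 84.1% and 67.3% kept, and midpoints within 200 bp 88.6% and 70.9%. With both lists cut to their higher-scoring 50% and compared only with each other, 71.7% of DMSO peaks were kept, 9.58% gained and 27.4% lost. Here a peak whose partner scored in the lower 50% of the other list had none. Against the whole other list, 96.1% of gained and 91.3% of lost peaks were in the lower 50%. Gain and loss were 10.3% and 28.8% with no overlapping peak and 6.89% and 23.3% with none within 5 kb. The median rank shift was 0.50 with ranks among the pairs alone, 0.28 with the best-scoring partner, and -4.17 with the lists as deposited, where list length sets the rank. The width change was -82 bp with the best-scoring partner, -85 bp at equal length and -87 bp in the higher-scoring 50%. Lost minus kept width was -3.79 bp matched by score and -102 bp with no score groups. Gained minus kept overlap with SETD7 was 1.92 points without sites of SETD7 and all 3 FOXA1 lists, and 2.24 at equal length. Lost minus kept overlap with 22Rv1 FOXA1 was -29.9 points with no score groups and -17.8 with the shSETD7 list. Gained minus kept was -10.7 with no score groups, -1.61 with shCTL, 9.75 with shSETD7 and 4.35 at equal length. Except where a rule or list length sets the value, the cause was not tested. Depth, unknown here, limits every kept share.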
